A study of Mus musculus with 10 samples.

Results

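Besides protein-coding mRNAs, the genes of P19 cells give rise to polyadenylated transcripts that the annotation lists as processed transcripts, retained introns, or targets of nonsense-mediated decay. These transcripts were studied here in undifferentiated P19 cells, a mouse embryonal carcinoma line, after knockdown of *Larp1*. They were taken as every annotated transcript of the mRNA class that passed the poly(A) quality tag, was neither coding, mitochondrial nor a pseudogene in its annotated family, and did not belong to 8 snoRNA host genes (*Gas5*, *Snhg1*, *Snhg3*, *Snhg5*, *Snhg6*, *Snhg8*, *Snhg12* and *Zfas1*). The rule used no tail length and no difference between conditions. It gave 6048 transcripts of 4234 genes among 28279 kept transcripts, or 21.4%, and they held 99658 of 2042110 kept alignments, or 4.88%. The 8 left-out host genes had 0 alignments in the table analysed here.

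All 10 libraries came from wild-type P19 cells that received either a pool of scrambled siRNAs (siCtl) or an siRNA against *Larp1* (siLarp1), with 3 libraries of each at 24 h and 2 of each at 48 h. The cells of the 48 h groups had been transfected again at 24 h. Poly(A) RNA was read directly on a Nanopore chip, so that each read gave a transcript and the length of its own tail. Only 1 *Larp1* siRNA and 1 cell line were used. The study's methods call the libraries biological replicates without saying how cultures were kept apart. In the 24 h data each treatment had a sequencing pool of its own, which means that an effect of the pool and one of the siRNA cannot be told apart, while all 48 h libraries were pooled together.

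The libraries held 112720 to 423398 kept alignments, of which 5587 to 19465 lay on the noncoding-annotated transcripts. *Larp1* itself was at 75.9, 84.2 and 85.0 RPM (alignments scaled to 1000000 kept alignments of the library) in the siCtl libraries and at 33.4, 44.9 and 19.1 RPM in the siLarp1 libraries at 24 h. At 48 h it was at 169 and 123 RPM against 18.5 and 24.9 RPM, so the groups did not overlap at either time. *Larp1* had 147 kept alignments in all. Of 10 pluripotency markers 9 had reads, with a summed level of 3265 to 4362 RPM across libraries, and *Zfp42* was at 0. Of 6 neuronal markers 5 had reads, with a summed level of 199 to 372 RPM and *Neurod1* at 0. Endodermal markers summed to at most 6.37 RPM, with *Sox17* and *Afp* at 0. The 4 mesodermal and fibroblast markers summed to 34.9 to 87.4 RPM at 24 h and 160 to 406 RPM at 48 h, mostly *T*; their part in the results was not tested.

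LARP1 is an RNA-binding protein that binds the 5′ end of terminal oligopyrimidine (TOP) mRNAs, which encode ribosomal proteins and translation factors, and it is also known to bind poly(A)-binding protein and to shield tails from deadenylation. A retained-intron transcript keeps an intron that the coding isoform loses, and many such transcripts stay in the nucleus. Transcripts of the nonsense-mediated decay family carry a premature stop codon and are degraded after translation starts. The family called processed transcript is a catch-all for spliced or unspliced transcripts with no open reading frame in the annotation.

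Processed transcripts were the largest family, with 51904 alignments on 1504 transcripts. Retained introns had 25478 alignments on 2836 transcripts, and nonsense-mediated decay transcripts had 22270 alignments on 1705 transcripts. The remaining 2 families were nearly empty: non-stop decay had 4 alignments on transcripts of *Ccl25* and *Erc2*, and the family TEC, for transcripts still to be tested by experiment, had 2 alignments on a transcript of *Sfswap*. Reads were spread thinly. A transcript had a median of 3 alignments, 2035 transcripts had 1, 383 had at least 30, and the 10 most-read transcripts held 40.1% of all alignments.

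The label noncoding fitted few of these RNAs in the usual sense of a long noncoding RNA. Of 55 well-known noncoding RNA genes, *Malat1*, *Neat1*, *H19* and *Meg3* among them, 3 had an annotated transcript in the table, and only *Snhg11* was among the 6048, with 1 alignment. Most alignments lay on isoforms of coding genes or on near-identical copies of them. Isoforms of coding genes outside the TOP list took 46.4% of the alignments on 5544 transcripts, and isoforms of TOP genes took 12.6% on 153 transcripts. Transcripts of genes with no kept alignment on a coding transcript took 41.0% on 351 transcripts. Such genes are called genes without a coding transcript below, although the annotation may list one. Of the last class, 18 transcripts matched a coding transcript of another locus over at least 50% of their read-covered part at 90% identity or more. These 18 copies held 38063 alignments, or 38.2% of the total, while the other 333 held 2763. Only 379 of the 6048 transcripts, those with at least 30 alignments and a sequence to search, were searched for such matches. The other 333 therefore include transcripts that were not searched. The word copy stands for such a match alone, and which sequence came from which was not tested. Copies of TOP mRNAs made up 7 of the 18 and held 30034 alignments.

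**Figure D1:**
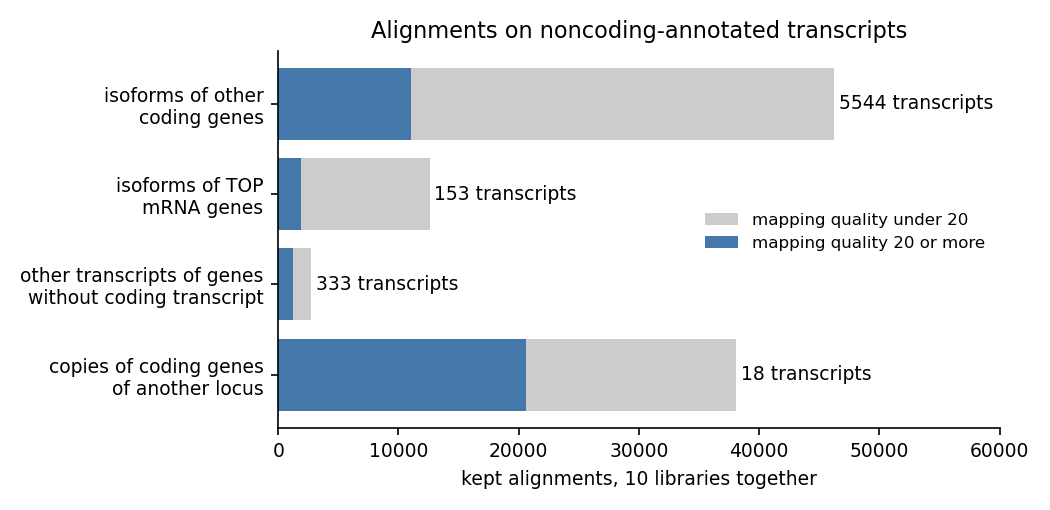
Kept alignments of the 10 libraries together (horizontal axis) on 4 classes of noncoding-annotated transcripts (vertical axis), with the number of transcripts beside each bar and the blue part showing alignments with a mapping quality of 20 or more. The 18 copies hold 38063 alignments, and the 333 other transcripts of genes without a kept alignment on a coding transcript hold 2763. Only transcripts with at least 30 alignments were searched for copies, so not all of the 333 were. Only a small part of the isoform alignments is placed with a mapping quality of 20 or more.

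How closely copies and isoforms resemble coding mRNAs can be read from their sequences, which are from the GENCODE M21 transcripts on GRCm38 (mm10). The stretch below is the first isolated difference between *Rps26-ps1*, a single-exon copy of the mRNA for ribosomal protein S26 on chromosome 8, and *Rps26*. Both were read on the minus strand, at chr8:107439519-107439547 and, within the *Rps26* coding sequence, at chr10:128626200-128626228. Capitals mark the differing base, C15T from *Rps26* to *Rps26-ps1*, counted from 1 at the 5′ end of the stretch. The read-covered 422 bases of *Rps26-ps1* had 4 mismatches with *Rps26*, an identity of 99.1%.
Rps26: agaaacaacggtcgCgccaaaaagggccg
Rps26-ps1: agaaacaacggtcgTgccaaaaagggccg

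The second pair shows a match inside a longer transcript. Reads on the *Vmn2r97* processed transcript, named after a vomeronasal receptor gene, lay at bases 1664 to 2561 (medians of their starts and ends) of its 3711 bases and matched *D10Wsu102e* at 94.5% identity. The stretches are plus-strand, at chr10:83460341-83460369 and chr17:18931905-18931933, and the capitals mark G15A from *D10Wsu102e* to *Vmn2r97*. The *D10Wsu102e* stretch lies in an exon, outside or across the edge of its coding sequence.
D10Wsu102e: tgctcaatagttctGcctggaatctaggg
Vmn2r97: tgctcaatagttctAcctggaatctaggg

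The most-read retained-intron transcript, of *Fam221b*, matched the mRNA of *Serf2* on the opposite strand. Its stretch at chr4:43664166-43664195 (minus strand) is the reverse complement of a stretch of the *Serf2* coding sequence at chr2:121450810-121450839 (plus strand). Of the part covered by its 574 alignments, 98.9% matched *Serf2* in this orientation at an identity of 100%, and 0.871% of them had a mapping quality of at least 20.
Fam221b: actggctccaggcacacaggcggagggcaa
Serf2: ttgccctccgcctgtgtgcctggagccagt

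In contrast, the *Cct6a* transcript, of a gene for a subunit of the TRiC chaperonin, was read from its own sequence. It had 1376 alignments, 99.7% of them with a mapping quality of at least 20, while the coding transcript of the gene had 1.

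A poly(A) signal, AATAAA or ATTAAA on the transcript strand, stood in the 50 bases before the median read end of 321 of 379 noncoding-annotated transcripts with at least 30 alignments, or 84.7%. The share was 87.3% for retained introns, 83.8% for nonsense-mediated decay transcripts and 81.8% for processed transcripts, against 85.2% of 5974 coding transcripts. In the last 50 bases of all 141767 annotated transcripts it was 33.7%. That share is taken at the annotated end, whether the transcript was read or not, so it is no matched background. The read ends of 69.1% of retained-intron, 69.4% of nonsense-mediated decay and 82.2% of processed-transcript alignments lay within 50 bases of the annotated end, against 63.6% of coding alignments.

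Tails under 30 nt, a length class linked to mRNA decay, were more frequent on the noncoding-annotated transcripts of siLarp1 libraries. At 24 h they made up 2.04, 1.80 and 1.80% of alignments in the siCtl libraries and 2.34, 2.49 and 2.41% in the siLarp1 libraries. At 48 h they made up 2.56 and 2.26% against 3.42 and 2.79%. Every siLarp1 library was above every siCtl library of its time point. The means were 1.88% ± 0.140 (SD, n = 3) and 2.41% ± 0.0733 (SD, n = 3) at 24 h, and 2.41% ± 0.211 (SD, n = 2) and 3.10% ± 0.449 (SD, n = 2) at 48 h. An exact permutation test could not go below p = 0.1 at 24 h or 0.333 at 48 h, and both time points gave these smallest values. Over both time points the share was 0.612 percentage points higher with siLarp1 (exact stratified permutation test, two-sided p = 0.0167, the smallest of 120 arrangements; Benjamini-Hochberg adjusted p = 0.0292 over 14 tests). Leaving out a siCtl library at 48 h (siCtl_25) brought the difference to 0.538 points, with an exact permutation p = 0.05. With reads of every quality tag it was 0.635 points (exact permutation p = 0.0667). Paired by the library number that both siRNAs share, it was positive in 5 of 5 pairs, where the exact sign-flip permutation test can go no lower than its p = 0.0625.

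By family, the increase passed the test in processed transcripts and retained introns. In processed transcripts the 24 h means were 1.26% ± 0.0438 in siCtl and 1.76% ± 0.0653 in siLarp1 (SD, n = 3 each), and the 48 h means 1.69% ± 0.0874 and 2.52% ± 0.489 (SD, n = 2 each), without overlap. The difference over both times was 0.663 percentage points (exact stratified permutation p = 0.0167, adjusted p = 0.0292). In retained introns they were 2.90% ± 0.420 and 3.65% ± 0.245 (SD, n = 3 each), then 3.45% ± 0.352 and 3.89% ± 0.0141 (SD, n = 2 each), again without overlap, or 0.596 points over both (exact permutation p = 0.0167, adjusted p = 0.0292). That call was lost with all quality tags (0.657 points, exact permutation p = 0.117), at a mapping quality of 20 or more (0.998 points, exact permutation p = 0.0667), and without either 48 h siLarp1 library (0.591 and 0.601 points, exact permutation p = 0.0667 each) or without siLarp1_21 (0.528 points, exact permutation p = 0.05). Nonsense-mediated decay transcripts were at 2.25% ± 0.203 (SD, n = 3) and 2.63% ± 0.203 (SD, n = 3) at 24 h and at 2.68% ± 0.508 (SD, n = 2) and 3.42% ± 0.881 (SD, n = 2) at 48 h. Their difference of 0.562 points did not pass (exact permutation p = 0.133, adjusted p = 0.207), and their libraries overlapped at both times. No difference between the 24 h and the 48 h effect passed the test, with exact permutation p = 0.817 for all noncoding-annotated transcripts and 0.667 to 0.750 for the 3 families.

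**Figure D2:**
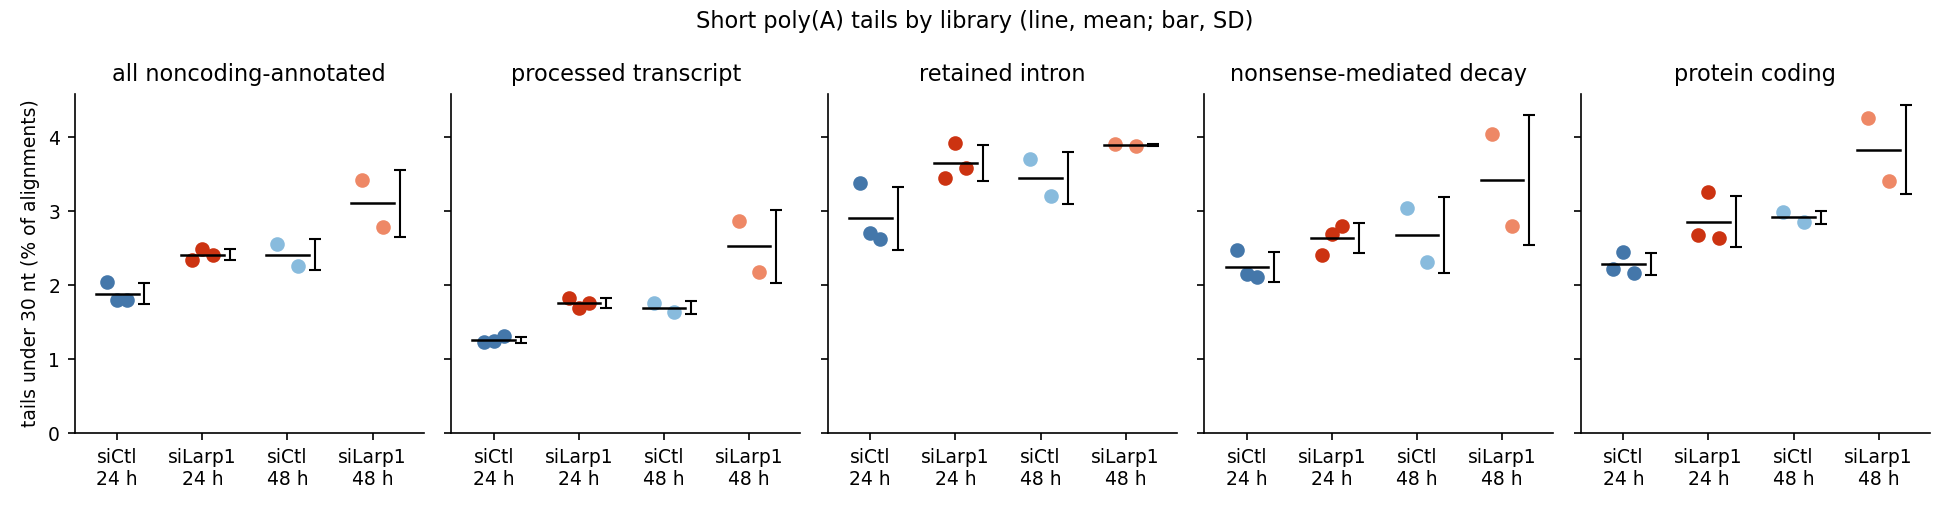
Share of alignments with a tail under 30 nt (vertical axis, %) in each library (points) of siCtl and siLarp1 at 24 h and 48 h, for all noncoding-annotated transcripts, 3 families and coding transcripts, with the mean (line) and SD (bar). The siLarp1 points lie above the siCtl points of the same time in all panels but nonsense-mediated decay.

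The coding transcripts of the same libraries were compared in the same way. Their share of tails under 30 nt was 2.28% and 2.86% at 24 h and 2.92% and 3.83% at 48 h in siCtl and siLarp1, or 0.744 percentage points higher over both times (exact permutation p = 0.0167). This joined a rise of 1.47 points in coding transcripts of TOP genes (exact permutation p = 0.0167) with 0.367 points in the other coding transcripts, which did not pass (exact permutation p = 0.3) and whose libraries overlapped at both times. Relative to coding transcripts of the same library, the log2 odds of a short tail on the noncoding-annotated transcripts differed by 0.01 between siLarp1 and siCtl (exact permutation p = 0.933), which did not pass the test. Isoforms of TOP genes had 24 h means of 1.79% ± 0.528 in siCtl and 3.00% ± 0.890 in siLarp1 (SD, n = 3 each) and 48 h means of 2.78% ± 0.221 and 3.51% ± 0.522 (SD, n = 2 each). This was 0.970 points over both times, against 1.47 points for the coding transcripts of TOP genes (exact permutation p = 0.0167 for each, adjusted p = 0.0292 for the isoforms). The isoform call was lost at a mapping quality of 20 or more (0.786 points, exact permutation p = 0.150) and on leaving out siCtl_21 or siLarp1_22 at 24 h or siCtl_25 at 48 h (0.818, 0.714 and 0.892 points). The noncoding-annotated transcripts outside TOP genes rose by 0.563 points (exact permutation p = 0.0167, adjusted p = 0.0292), beside the 0.367 points of coding transcripts outside TOP genes. The difference between these effects was not tested. The noncoding-annotated set outside TOP genes was split by gene name, so it also held the 7 copies of TOP mRNAs. They made up 30034 of its 87063 alignments. The call for this set was lost without either 48 h siCtl library (0.638 and 0.487 points). It was also lost without the 18 copies, although the difference was then slightly larger and not smaller. Transcripts of genes without a coding transcript stood at 0.881% in siCtl and 1.18% in siLarp1 at 24 h, and at 1.16% and 1.89% at 48 h, a rise of 0.516 points (exact permutation p = 0.0167, adjusted p = 0.0292). Without the 18 copies their difference was 0.042 points (exact permutation p = 0.933), and without siCtl_24 or siCtl_25 it was 0.527 or 0.505 points (exact permutation p = 0.183 each).

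Other tail measures did not differ. Tails of 30 to 90 nt, the class around 60 nt, made up 35.0% and 35.8% at 24 h and 38.7% and 37.8% at 48 h of siCtl and siLarp1 alignments (exact permutation p = 1 over both times). The median tail was 106 and 105 nt at 24 h and 101.1 and 101.8 nt at 48 h, a difference of -0.27 nt over both times (exact permutation p = 0.850).

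The noncoding-annotated transcripts took a larger share of all reads in siLarp1 libraries. Their level was 45431, 44108 and 45973 RPM in siCtl and 48464, 48087 and 47086 RPM in siLarp1 at 24 h, and 49565 and 56921 RPM against 58775 and 57443 RPM at 48 h. No siLarp1 library overlapped the siCtl libraries of its time, and the difference over both times was 3787 RPM (exact stratified permutation p = 0.0167, adjusted p = 0.0292). It was 2240 RPM without the 18 copies (exact permutation p = 0.233), and 3454 or 4120 RPM without siLarp1_24 or siLarp1_25 (exact permutation p = 0.233 and 0.183). Leaving out siCtl_24 gave 1948 RPM and leaving out siCtl_25 gave 5626 RPM, so the size rests on these 2 libraries. In pairs by library number it was positive in 5 of 5 (exact sign-flip permutation p = 0.0625, the smallest possible). Processed transcripts rose by 2241 RPM over both times (exact permutation p = 0.0167, adjusted p = 0.0292), and by 625 RPM without the copies (exact permutation p = 0.0833). Retained introns differed by 815 RPM (exact permutation p = 0.533) and nonsense-mediated decay transcripts by 725 RPM (exact permutation p = 0.150), neither past the test.

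Within libraries, whatever the treatment, tails of noncoding-annotated transcripts differed from those of coding ones. Their median tail was 2.83 nt longer and their share of tails under 30 nt 0.499 percentage points lower, each in 10 of 10 libraries (exact sign-flip permutation test, two-sided p = 0.00195, the smallest possible). The lower share came with the copies: without them it was 0.267 points higher than in coding transcripts (exact sign-flip permutation p = 0.0137). The families differed in this. Processed transcripts had 1.14 points fewer short tails than coding transcripts, in 10 of 10 libraries, but 0.396 points more without the copies, and retained introns had 0.543 points more, in 9 of 10 libraries (exact sign-flip permutation p = 0.00781). At a mapping quality of 20 or more the retained introns had 0.192 points fewer (exact sign-flip permutation p = 0.596). Retained introns had medians 3.90 nt and nonsense-mediated decay transcripts 5.37 nt longer than coding transcripts, each in 10 of 10 libraries. At that mapping quality these differences were 18.0 and 17.1 nt.

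The most-read transcripts matched coding transcripts of other loci in their read-covered part. The coding transcripts of *Rps2* had 393 alignments, 36.6% of them with a mapping quality of 20 or more. *Rps2-ps10*, a copy of the mRNA for ribosomal protein S2 at 99.5% identity, had 18702, with 68.4% at that quality. It was at 8867, 8901 and 9244 RPM in siCtl and 9369, 9256 and 9907 RPM in siLarp1 at 24 h, and at 8419 and 8377 RPM against 9823 and 9954 RPM at 48 h. All siLarp1 libraries were higher, by a log2 fold change of 0.08 ± 0.03 (SE) at 24 h and 0.24 ± 0.05 at 48 h, but neither passed across all transcripts (limma voom, adjusted p = 0.812 and 0.336). With the library number as a block the 24 h difference passed (limma voom, log2 fold change 0.08 ± 0.02, adjusted p = 0.0139) and that at 48 h did not (adjusted p = 0.0684). Its tails under 30 nt numbered 6, 7 and 8 in siCtl and 2, 0 and 4 in siLarp1 at 24 h, and 4 and 5 in siCtl and 16 and 13 in siLarp1 at 48 h. The rise was seen at 48 h only, from 0.421 and 0.334% to 1.01 and 1.08%, with a log2 odds ratio of 1.45 ± 0.54 (SE) that missed the threshold (quasi-binomial model, adjusted p = 0.0782). With transcripts of at least 300 reads its adjusted p was 0.0468, and with limma on log2 odds 0.0366. That the effect differed between the times was not tested for this transcript.

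*Rps26-ps1* had 7195 alignments (65.1% with a mapping quality of 20 or more) against 2782 (9.88%) on the coding *Rps26* transcripts. Its tails under 30 nt made up 2.09, 1.19 and 1.86% in siCtl and 1.94, 2.52 and 4.22% in siLarp1 at 24 h, and 2.36 and 1.82% against 5.73 and 2.94% at 48 h. The 24 h groups overlapped and the 48 h groups did not. The log2 odds ratio was 0.87 ± 0.29 (SE) at 24 h and 1.202 ± 0.411 at 48 h, just short of the threshold across all transcripts (quasi-binomial model, adjusted p = 0.0662 and 0.0531). A likelihood-ratio form of the same model gave an adjusted p = 0.0471 at 48 h and limma on log2 odds gave adjusted p = 0.00361 and 0.0107. Without siLarp1_22 at 24 h the log2 odds ratio was 0.42, and without siLarp1_24 at 48 h it was 0.58. Its level was 3469, 3675 and 3810 RPM against 3879, 3559 and 4228 RPM at 24 h, and 3380 and 3072 RPM against 2906 and 2538 RPM at 48 h, where it was lower with siLarp1 without passing the test (limma voom log2 fold change -0.22, adjusted p = 0.893).

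The *Vmn2r97* transcript had the longest tails of the 4 most-read processed transcripts, with library medians of 123 to 142 nt, as had *D10Wsu102e*, with 128 to 143 nt. It stood at 2112, 1920 and 2161 RPM in siCtl and 2770, 2235 and 2642 RPM in siLarp1 at 24 h, and at 3398 and 3609 RPM against 4461 and 4305 RPM at 48 h. The siLarp1 libraries were higher without overlap at both times, with log2 fold changes of 0.30 ± 0.07 (SE) and 0.32 ± 0.08, which did not pass across all transcripts (limma voom, adjusted p = 0.406 and 0.532). With the library number as a block the 24 h difference passed (limma voom, log2 fold change 0.30 ± 0.05, adjusted p = 0.000112) and that at 48 h did not (adjusted p = 0.248). *D10Wsu102e* had mean levels of 1926 RPM in siCtl and 2408 RPM in siLarp1 at 24 h, and of 3798 and 4829 RPM at 48 h. *Gm10275*, identical to *Rpl12* in its read-covered part, had 2374 alignments at 1006 to 1327 RPM, and its groups overlapped at both times. Of these alignments 99.9% had mapping quality 0, so its level cannot be told apart from that of *Rpl12*.

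**Figure D3:**
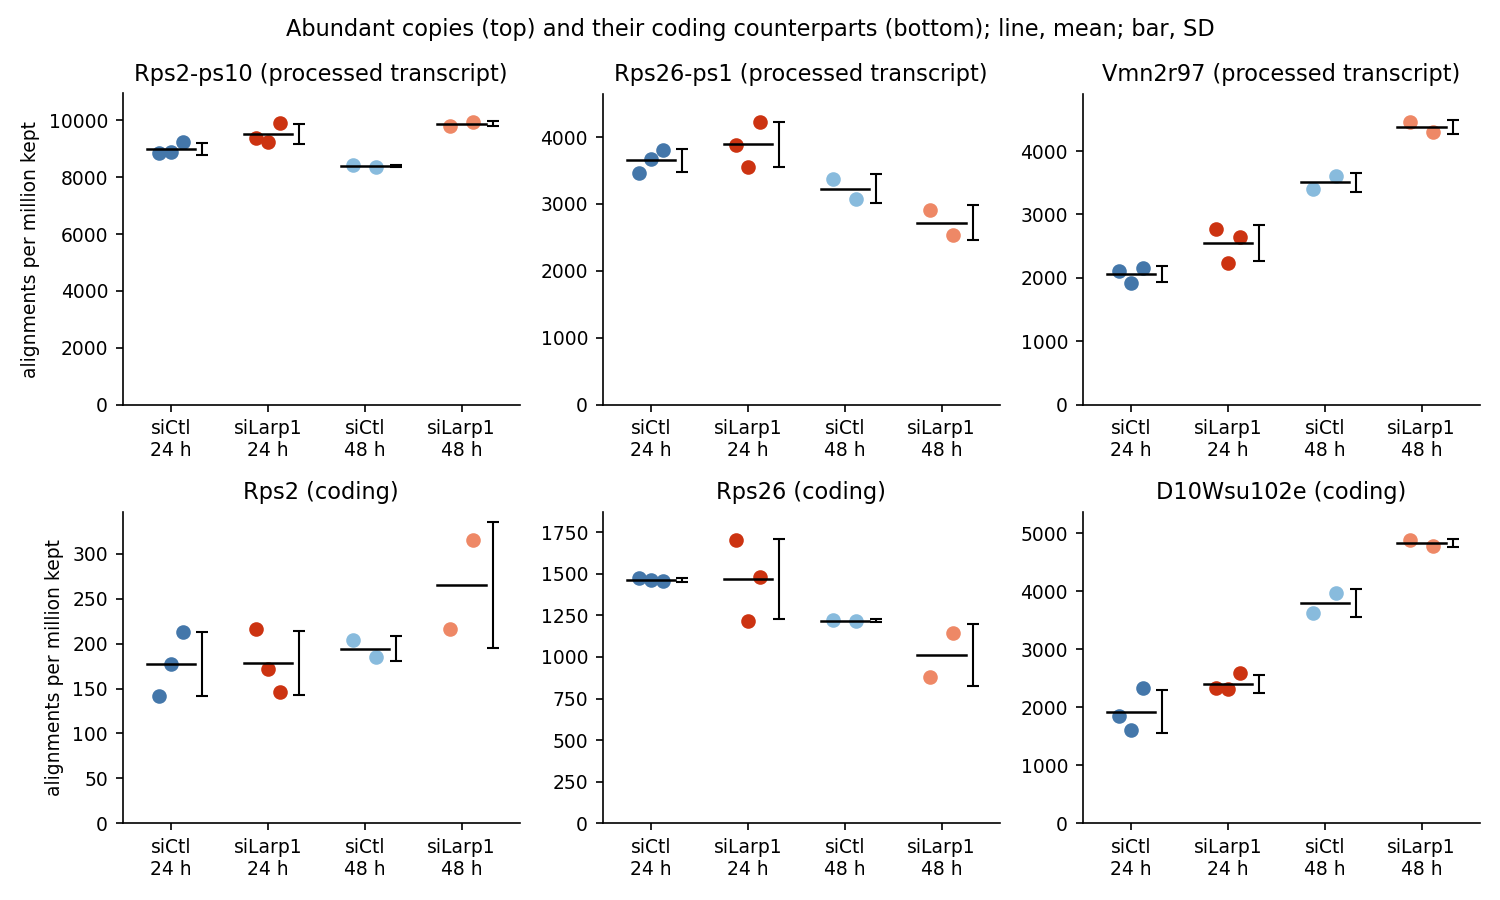
Level in RPM (vertical axis) in each library (points) for 3 copies annotated as processed transcripts (top row) and the coding transcripts they match (bottom row), with the mean (line) and SD (bar). *Rps2-ps10* and *Vmn2r97* are higher in every siLarp1 library than in the siCtl libraries of the same time, *Rps26-ps1* is lower at 48 h, and the coding *Rps2* transcripts stay between 142 and 315 RPM.

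Across all transcripts and without the block, none of the noncoding-annotated ones passed an adjusted p of 0.05 at either time. For short tails, 28 were tested at 24 h and 17 at 48 h, with 0 called in either direction by the quasi-binomial model. Of all transcripts tested, 3.66% and 4.72% were called higher and 0% lower. At an unadjusted p under 0.05 in that model, 2 of the 28 and 2 of the 17 were higher. Of all transcripts tested, 125 of 1146 and 94 of 551 were higher at the same limit. Limma on log2 odds called 1 at 24 h and 2 at 48 h, beside 81 of all 1146 and 34 of all 551. For tail length, 243 and 106 were tested by limma with 0 called, against 0.0202% of all transcripts called longer and 0.101% shorter at 24 h and 0% at 48 h. Without adjustment, at a p under 0.05, 2 were longer and 4 shorter at 24 h, and 3 longer and 3 shorter at 48 h. Of all 4952 transcripts tested at 24 h, 146 were longer and 153 shorter, and of all 2587 at 48 h, 82 and 59. For abundance, 243 and 106 were tested by limma voom with 0 called, against 0.0202% called in each direction at 24 h and 0% at 48 h. Without adjustment 11 were higher and 2 lower at 24 h, and 3 higher and 1 lower at 48 h. Of all 4956 transcripts tested at 24 h, 162 were higher and 97 lower, and of all 2587 at 48 h, 64 and 69. With the library number as a block, *Rps2-ps10* and *Vmn2r97* were the 2 called at 24 h, both higher, and 0 were called at 48 h. The block called 11 higher and 6 lower of all 4956 transcripts at 24 h, and 0 higher and 1 lower of all 2587 at 48 h. The median log2 odds ratio of a short tail was 0.75 over the 28 at 24 h and 0.21 over the 17 at 48 h, beside 0.40 and 0.55 over all transcripts tested.

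Isoforms of coding genes share bases with coding exons. A read can thus be assigned to them without holding anything of the intron or the alternative exon. Bases outside every coding exon of the strand, here called own sequence, were therefore counted. Of the retained-intron isoforms of coding genes 2622 of 2708 had at least 50 bases of own sequence, yet 20.8% of 24469 alignments covered 50 or more of them. The share was 30.7% of 13159 alignments for processed transcripts and 12.2% of 20553 for nonsense-mediated decay transcripts. Alignments over own sequence had a mapping quality of 20 or more in 83.2% of retained-intron, 90.5% of processed-transcript and 85.0% of nonsense-mediated decay cases. The other isoform alignments reached it in 2.18, 8.65 and 9.20%.

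Alignments of the second kind made up most of those on the most-read retained-intron and nonsense-mediated decay transcripts, except *Fam221b*. The 4 most-read retained-intron transcripts were of *Fam221b*, described above, *Eef1g* (an elongation factor subunit), *Rpl3* (a ribosomal protein) and *Tpi1* (a glycolytic enzyme). All *Fam221b* alignments covered own sequence, but only 0.183% of 547 for *Eef1g*, 9.31% of 537 for *Rpl3* and 0.204% of 490 for *Tpi1* did. The 4 most-read nonsense-mediated decay transcripts were of *Rpl36a* (2054 alignments), *Hnrnpa1* (604), *Ppia* (517) and *Rpsa* (484), which encode a ribosomal protein, a splicing regulator, a prolyl isomerase and a ribosomal protein. Own sequence was covered by 0% of the *Rpl36a* and *Ppia*, 1.32% of the *Hnrnpa1* and 2.69% of the *Rpsa* alignments. The *Rpl36a* isoform was at 861 to 1168 RPM across libraries and its library medians of 80.8 to 103 nt lay near those of coding *Rpl36a*, 83.6 to 105 nt. *Tpi1* had 12 tails under 30 nt in all on its isoform, of which siCtl had 2 and siLarp1 5 at 24 h, and siCtl 3 and siLarp1 2 at 48 h.

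Isoform reads over own sequence had longer tails. Their median averaged 114 nt over the 10 libraries, against 103 nt for the other isoform reads, and was longer in 10 of 10 libraries (mean difference 11.3 nt, exact sign-flip permutation p = 0.00195). Among alignments of mapping quality 20 or more the difference was 3.73 nt, again with p = 0.00195 by the exact sign-flip permutation test. Few of the other isoform reads reached that quality. Tails under 30 nt made up 2.63% and 3.30% (exact sign-flip permutation p = 0.0352, lower in 7 of 10 libraries), a difference of 0.581 points at p = 0.311 by the same exact test among alignments of mapping quality 20 or more. These comparisons were added after the data had been examined.

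**Figure D4:**
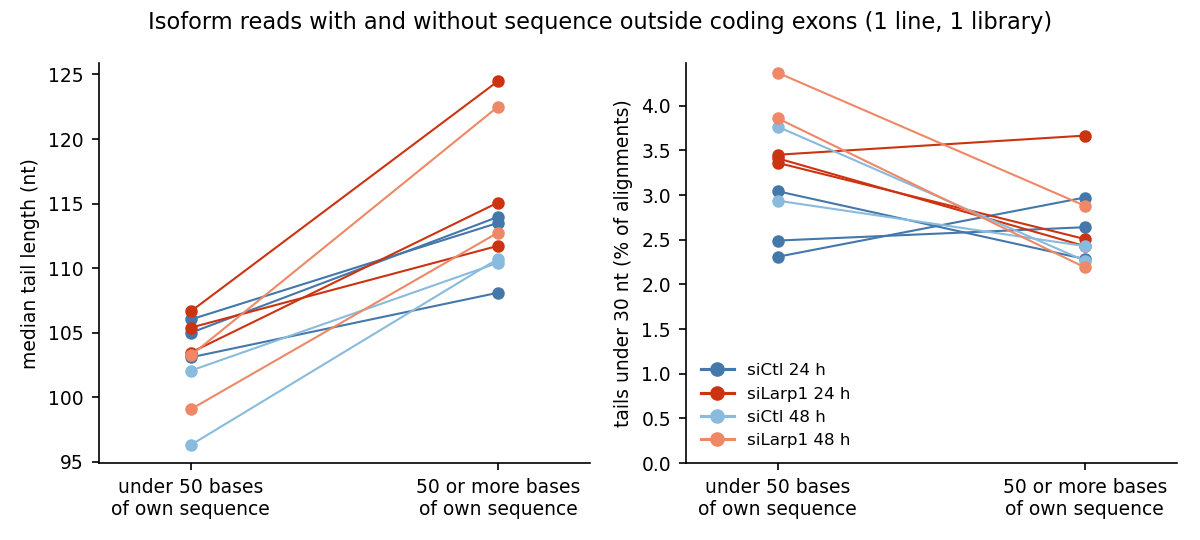
Median tail length in nt (left vertical axis) and share of tails under 30 nt in % (right vertical axis) of isoform reads with under 50 and with 50 or more bases outside coding exons, each line joining the values of 1 library. The median is longer over own sequence in 10 of 10 libraries, and the share of short tails is lower in 7 of 10.

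The isoform reads without own sequence were compared between siLarp1 and siCtl first. Their share of tails under 30 nt averaged 2.61% in siCtl and 3.41% in siLarp1 at 24 h, and 3.35% and 4.11% at 48 h, without overlap, or 0.778 points over both (exact permutation p = 0.0167). Reads over own sequence were at 2.63% and 2.87% at 24 h and 2.35% and 2.54% at 48 h, with overlap and a difference of 0.212 points (exact permutation p = 0.433). The difference between these effects, -0.566 points, did not pass (exact permutation p = 0.117), while among alignments of mapping quality 20 or more it was -2.05 points (exact permutation p = 0.0167). At that quality only 2.18 to 9.20% of the isoform reads without own sequence remained, depending on the family. Median tails of reads over own sequence were 112 and 117 nt at 24 h and 111 and 118 nt at 48 h in siCtl and siLarp1 (exact permutation p = 0.0667).

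Isoforms were also compared with coding transcripts of their own gene. Over 332 genes with at least 30 alignments of each, the median tail of the noncoding-annotated isoforms differed by -0.17 nt (quartiles -8.21 and 9.41 nt), and was longer in 164 genes and shorter in 168. Their share of tails under 30 nt was larger in 165 genes, smaller in 157 and equal in 10. Counting only reads over own sequence, 65 isoforms had at least 30 such reads, and 50 of them had at least 30 coding reads to compare. The tails were longer in 31 and shorter in 19, by more than 20 nt in 14 and 4. For retained introns the numbers were 16 longer and 9 shorter, for nonsense-mediated decay transcripts 10 and 4, and for processed transcripts 5 and 6.

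Among isoforms of genes with at least 30 coding reads, those with the longest tails relative to the coding transcripts, picked out after their values were seen, were of *Larp7*, *Rps20*, *Rpl3* and *Rpl12*. *Larp7* encodes the protein that holds the 7SK RNA. A retained-intron transcript of it at chr3:127544167-127547537 had a median tail of 286 nt over 52 reads, against 91.9 nt on the coding transcripts of the gene, and its library medians of 236 to 417 nt were above the coding median in 10 of 10 libraries. For the ribosomal protein genes, the median was 195 nt over 46 reads against 95.0 nt for *Rps20* (longer in 8 of 9 libraries), 192 nt over 50 reads against 99.1 nt for *Rpl3* (10 of 10), and 164 nt over 126 reads against 97.9 nt for a nonsense-mediated decay transcript of *Rpl12* (10 of 10). None of these reads over own sequence had a tail under 30 nt. The stretches below show where these isoforms enter or leave own sequence, whose bases are in capitals. In *Larp7*, *Rpl3* and *Rpl12* the own bases open with GT, the letters that begin most introns, and in *Rps20* they end with AG, the letters that end them. They lie at chr3:127547072-127547101, chr4:3835274-3835303, chr15:80081597-80081626 (all minus strand) and chr2:32961828-32961857 (plus strand).
Larp7: tctgttgtagagGTAAAAAACTTACATTTC
Rps20: GGGTGATAACAGgcatttaaagataccgga
Rpl3: ctataagaactgGTAAGAGGCTCTTGGGTT
Rpl12: aggtcaaagtcgGTGCGTGCCCTCGCCGCG

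**Figure D5:**
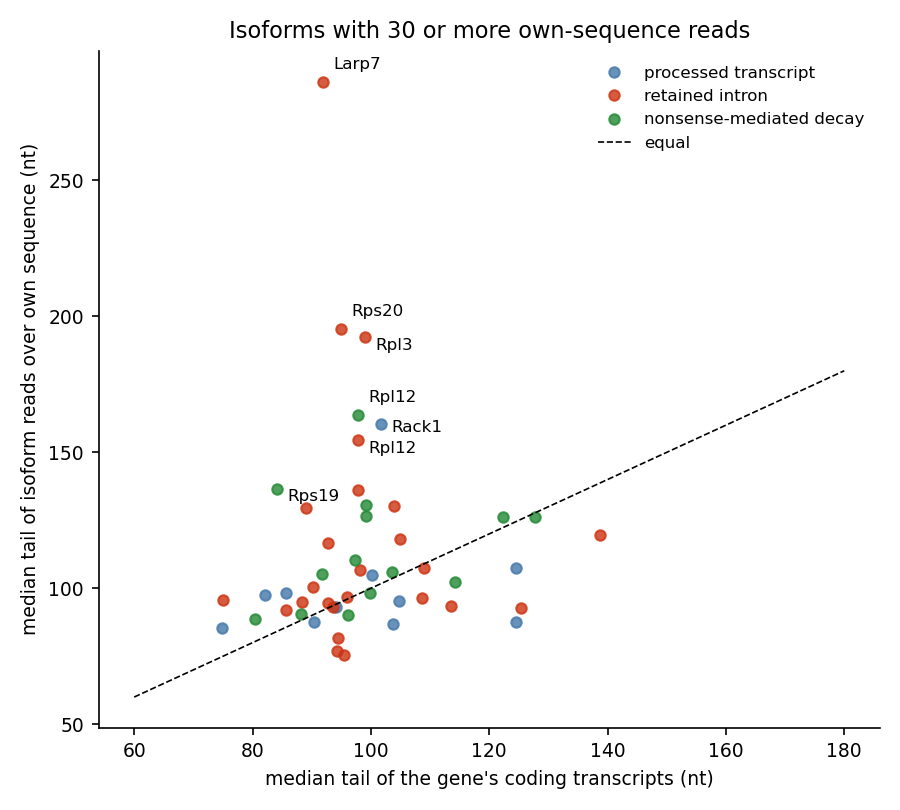
Median tail of isoform reads over own sequence (vertical axis, nt) against the median tail of the coding transcripts of the same gene (horizontal axis, nt) for 50 isoforms (points, coloured by family) with at least 30 reads of each, the dashed line marking equal values. Isoforms with a median more than 50 nt above that of the coding transcripts are named, *Larp7* with 286 nt the highest.

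Other isoforms read from own sequence, likewise picked after their values were seen, ranged widely. A nonsense-mediated decay transcript of *Taf1d*, which encodes a factor of RNA polymerase I, had a median tail of 234 nt over 34 reads, against 18 coding reads with 116 nt. A retained-intron transcript of *Cep295*, a centrosomal protein gene, had a median of 38.9 nt over 63 reads, 19 of them under 30 nt, with 11.1% at a mapping quality of at least 20 and 5 coding reads. A nonsense-mediated decay transcript of *Cbx1*, which encodes a heterochromatin protein, had 215 alignments, all over own sequence, with a median tail of 125 nt, against 29 coding alignments with 112 nt. The *Cct6a* transcript had a median of 103 nt and 32 tails under 30 nt in 1376 alignments, and stood at 508 to 796 RPM. Its groups overlapped at 24 h, while at 48 h it was at 603 and 604 RPM in siCtl against 796 and 664 RPM in siLarp1, a log2 fold change that did not pass across all transcripts.

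A processed transcript of *Rpl7a*, a ribosomal protein gene, was read mostly from shared sequence. Its 164 alignments, 2.44% of them over own sequence, had a median tail of 69.98 nt and 13.4% of tails under 30 nt, against 84.4 nt and 4.65% on coding *Rpl7a*.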

How the data were processed

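Per the labels and the study's methods, TRIzol RNA was purified on oligo(dT) beads and read with Nanopore direct RNA-seq. The authors aligned reads to annotated mouse (mm10) transcripts with minimap2 (version 2.20 in the submitters' processing notes) and estimated tails with Nanopolish. The deposited table holds 2652217 alignments of 2577272 reads, none shared between libraries, with tail lengths in nt, positions in bases, a mapping quality score, and a barcode confidence, given by the authors as a fraction.

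Reads were tallied here per library, with levels as RPM, the alignments scaled to 1000000 kept alignments of a library. Isoforms share sequence, so 42.4% of the noncoding-annotated alignments at 24 h and 49.4% at 48 h in siCtl (library means) had mapping quality 0. Libraries were compared with exact permutation tests, stratified by time. Per transcript, limma 3.58.1 (R 4.3.3) was fitted over all kept transcripts: weighted mean log2(tail + 1) and voom levels (at least 30 reads), and a quasi-binomial model of short tails (at least 100 reads, 5 short), with Benjamini-Hochberg adjustment. The fits were tested on simulated data. There a likelihood-ratio statistic of the short-tail model made too many false calls at 48 h, so a score statistic and a dispersion of at least 1 were used instead. The first form had already been run on the real reads, where it called *Rps26-ps1* at 48 h. Copies were sought with blastn 2.17.0+ among the 379 transcripts with at least 30 alignments and a GENCODE M21 sequence. Named transcripts are the 4 most read of each of the 5 families, plus any called; others were picked after their values were seen. Members and lists were chosen with earlier results of these data known. The table does not tie its libraries to the numbered replicates of the labels. They share numbers between the siRNAs (19, 21 and 22 at 24 h, 24 and 25 at 48 h). Over 552 transcripts with at least 500 reads, deviations of same-numbered libraries from their group means correlated at 0.110 to 0.336 in level and 0.100 to 0.191 in tail at 24 h (3 pairs), and at 0.119 and -0.0318 at 48 h. The number was therefore also fitted as a block, chosen after the data had been examined.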

Additional observations from a re-analysis of the deposited data

How the results depend on the processing

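The libraries carry none of the replicate numbers of the labels, so the replicate block used the library number instead. With it the difference in short tails was 0.612 points in all noncoding-annotated transcripts and 0.563 outside TOP genes, and that in level 3787 RPM, each with an exact sign-flip permutation p = 0.0625, the smallest that 5 pairs allow, so this test could pass nothing. With the replicate block, limma on log2 odds called 1 noncoding-annotated transcript for short tails at 24 h (*Rps26-ps1*) and 1 at 48 h (*Rps2-ps10*), and voom 2 for abundance at 24 h. Over all transcripts at 24 h the replicate block gave 23 calls of tail length, 101 of short tails and 17 of abundance. The alternatives at a mapping quality of 20 or more, without copies, on the length of own sequence, with the library number as a block and with the likelihood-ratio statistic were chosen after seeing the data. Of the values recomputed with all libraries in, 241 kept direction and side of the threshold, 22 lost the call, 19 gained it and 18 changed direction; the cause was not tested.

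Differences below are siLarp1 minus siCtl in percentage points of tails under 30 nt, unless stated. With all quality tags they were 0.635 for all noncoding-annotated transcripts, 0.657 for retained introns, 0.614 outside TOP genes and 0.412 for genes without a coding transcript, all no longer past the threshold. The median tail then differed by 0.16 nt, the log2 odds relative to coding transcripts by -0.0799, the 48 h minus 24 h effect in retained introns by 1.18, and nonsense-mediated decay minus coding transcripts by 0.403. With a barcode confidence of at least 0.9, retained introns differed by 0.461 (exact permutation p = 0.05) and the share of 30 to 90 nt tails by 0.181, and for reads aligned to 1 sequence the latter by 0.0384. With short tails set at under 20 nt, isoforms of TOP genes differed by 0.173 and genes without a coding transcript by 0.168, both past no threshold. The log2 odds relative to coding transcripts were then -0.18, the time difference in retained introns 0.0957, and the differences from coding transcripts -0.00268 for all and 0.086 for nonsense-mediated decay. At a mapping quality of 20 or more, retained introns differed by 0.998, nonsense-mediated decay by -0.0835, isoforms of TOP genes by 0.786, genes without a coding transcript by 0.349, the share of 30 to 90 nt tails by 0.524, and retained introns from coding transcripts by -0.192.

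Without copies the differences outside TOP genes and in genes without a coding transcript were 0.573 and 0.042, and the levels differed by 2240 RPM in all and 625 RPM in processed transcripts, all past no threshold. The median tail then differed by 1.61 nt, the log2 odds by -0.0511, the time differences were -0.00773 in all and -0.0723 in processed transcripts, and the differences from coding transcripts were 0.267 for all and 0.396 for processed transcripts. The calls per transcript that follow kept the copies in. Short-tail calls of noncoding-annotated transcripts numbered 1 at 24 h and 2 at 48 h with limma on log2 odds. At 48 h they numbered 2 with 3 times the minimum of reads and 1 with the likelihood-ratio statistic. All were of *Rps26-ps1* or *Rps2-ps10*, which are copies. Over all transcripts these settings called 34 of 551, 32 of 232 and 30 of 551 at 48 h. With a minimum of 2 reads, abundance calls numbered 4 of 3273 at 24 h and 2 of 2355 at 48 h. That minimum called 23 higher and 8 lower of all 20225 at 24 h. At 48 h it called 4 higher and 9 lower of all 16237. Over all transcripts, short-tail calls at 24 h were 42, and 81 with limma on log2 odds or 29 with the likelihood-ratio statistic, tail-length calls 6, or 2 with a minimum of 10 reads, and abundance calls 2, or 31 with a minimum of 2 reads.

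Leaving out each library in turn gave these ranges. The difference was 0.454 to 0.771 for all noncoding-annotated transcripts, 0.472 to 0.721 for retained introns, 0.251 to 0.874 for nonsense-mediated decay, where it passed without siLarp1_25 (exact permutation p = 0.0333), 0.714 to 1.15 for isoforms of TOP genes, 0.350 to 0.775 outside TOP genes and 0.306 to 0.726 for genes without a coding transcript. The time difference was -0.154 to 0.482 in all, -0.0146 to 0.677 in processed transcripts and -0.265 to 0.981 in nonsense-mediated decay. The share of 30 to 90 nt tails differed by -0.519 to 0.518 points, the median tail by -1.22 to 0.68 nt, and the log2 odds relative to coding transcripts by -0.0362 to 0.0464. The levels differed by 1948 to 5626 RPM in all, -171 to 1800 RPM in retained introns and 241 to 1209 RPM in nonsense-mediated decay, which passed without siCtl_25 (exact permutation p = 0.0333). Calls among the noncoding-annotated transcripts at 24 h numbered 0 to 1 for short tails, where *Rps26-ps1* passed without siLarp1_19 (quasi-binomial model, adjusted p = 0.0287), and 0 to 1 for abundance. Over all transcripts short-tail calls were 6 to 32 at 24 h, and 0 to 16 at 48 h beside 26 with all libraries. Depth limits the tests per transcript: 90 of the 6048 had 100 or more alignments.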

Other observations

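Some genes outside the named set, picked after their values were seen, had long tails on noncoding-annotated isoforms whether or not the reads covered own sequence. *Clk1*, which encodes a kinase of splicing factors, had a median tail of 232 nt over 32 alignments of such isoforms against 133.5 nt over 52 coding alignments. *Rabggtb*, which encodes a subunit of a prenyltransferase, had 214 nt over 48 alignments against 114 nt over 109. A retained-intron transcript of *Wiz*, a zinc finger gene, had 260 alignments, all over own sequence, with a median tail of 137 nt. These are values over all libraries together, with no test.

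Among 3933 coding genes with alignments on noncoding-annotated isoforms, 281 had more of them than coding alignments. In the 1151 of these genes with at least 100 alignments, the isoforms took a median of 4.12% of a gene's alignments.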
